A study of Homo sapiens with 2 samples.

Results

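In the RB-depleted line, 395 of 26431 E2F1 peaks, 1.49% (95% Wilson interval 1.36 to 1.65), each overlapped 2 or more E2F1 peaks of the control line by at least 1 bp. These are called spanning peaks below. Another 9744 shRB peaks overlapped exactly 1 control peak (single-partner peaks) and 16292 overlapped none. The data were 2 peak lists from ChIP-seq, the sequencing of DNA that is pulled down with a bound protein, in the human prostate cancer cell line LNCaP. One list came from LNCaP with a short hairpin against the retinoblastoma protein RB (shRB) and the other, of 11653 peaks, from LNCaP with a control hairpin (shCON). Both lines were kept in CDT for 72 h, which the labels record as a cell cycle arrest treatment and the series as hormone deficient, and the same pair of antibodies against E2F1 served both. Each line had 1 library, so the values below describe these 2 libraries and no difference between the lines has a replicate check. The labels do not say whether a hairpin line is 1 clone or a pool, and RB itself was not measured in these files.

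E2F1 is a sequence-specific activator of genes for DNA replication, nucleotide supply and cell-cycle entry, and it acts mostly from promoters. RB binds the activation domain of E2F1 and holds these promoters silent until cyclin-dependent kinases phosphorylate RB. In this setting the series asked how the E2F1-bound sites change when RB is lost. A ChIP-seq peak is a stretch of enriched reads averaged over many cells. Whether neighbouring control peaks were bound in the same cells therefore cannot be told apart from these files.

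The 395 spanning peaks were chosen from the overlap of the 2 lists, so their number, width and score are given as a description, without a test. They made up 3.90% (3.54 to 4.29) of the 10139 shRB peaks that overlapped any control peak. With both lists reduced to their upper 50% by score, 52 were counted (0.980% of shared peaks), and when neighbouring control peaks had to be at least 200 bp apart, 196 were counted (1.93%). Of the 395, 385 overlapped 2 control peaks and 10 overlapped 3, and none overlapped more. In all they held 800 different control peaks. The name fits most of them: in 280, or 70.9% (66.2 to 75.1), all control peaks lay wholly inside the shRB peak. In 105 a control peak ran past the edge of the shRB peak while another lay inside, and in 10 no control peak lay wholly inside. Among single-partner peaks, the control peak lay wholly inside at 79.5% (78.7 to 80.3).

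Spanning peaks were wide. Their median width was 1111 bp (interval of the median 1081 to 1143, 5th to 95th percentile 763 to 1631), against 700 bp (695 to 706) for single-partner peaks and 438 bp for all shRB peaks. A wide peak can meet more control peaks, so this order follows in part from how they were chosen. Each was a median of 444 bp (405 to 477) wider than its control peaks added together. The added sequence lay both between and outside the control peaks. Of the 448 kb covered by spanning peaks, 255 kb (56.9%) was also covered by control peaks, 101 kb (22.5%) lay between neighbouring control peaks and 92.3 kb (20.6%) lay outside the outermost ones. For single-partner peaks, 53.7% of the bases were also covered by the control peak. The part of a shRB peak that a control peak covered was thus similar in both sets, while in spanning peaks the rest was divided between the inside and the outside.

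Extension beyond the control peaks was moderate at most sites. The median distance from the outermost control edge to the shRB edge was 79 bp on the left and 78 bp on the right. In 68 peaks, or 17.2%, the shRB peak ran 300 bp or more past the control peaks on at least 1 side. At the other extreme, 38 spanning peaks (9.62%) were narrower than the whole stretch their control peaks took up, and 3 were narrower than the summed width of their control peaks.

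**Figure D1:**
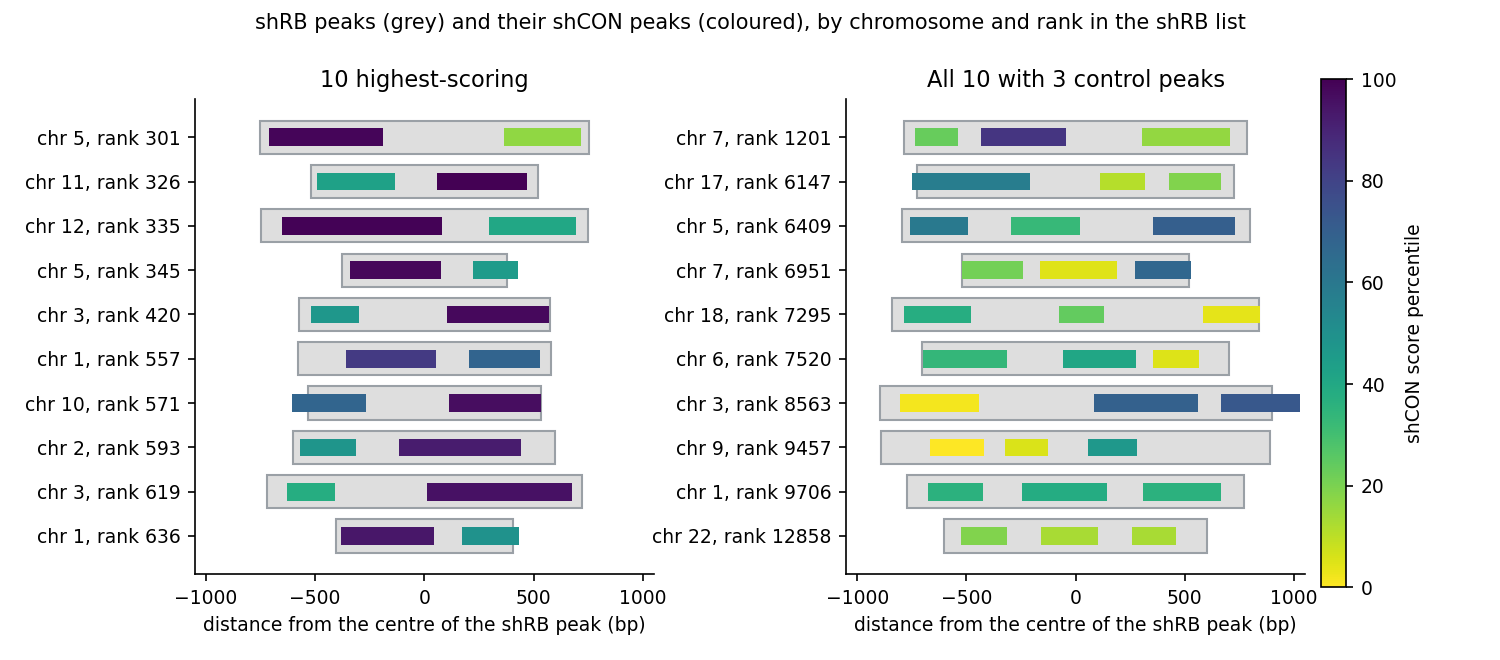
Maps of the 10 highest-scoring spanning peaks (left) and of all 10 that overlapped 3 control peaks (right), each row labelled by chromosome and rank in the shRB list. Grey bars are shRB peaks, coloured bars are shCON peaks with the colour giving the score percentile in the shCON list, and the horizontal axis is the distance in bp from the centre of the shRB peak. On the left 9 of 10 sites hold a control peak of the upper 10% of its list, and on the right 23 of 30 control peaks are in the lower 50% of their list.

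Of the 10 highest-scoring spanning peaks, 9 held a control peak of the upper 10% of its list. The sites were picked by shRB score, which went with the score of the strongest control peak (Spearman rho 0.71 over the 395). The other control peak ranks no higher by definition, so the pairing with a lower one is not a result. Scores are the authors' own and were used only to rank peaks within a list, with rank 1 the highest. The first lay on chromosome 5 (hg19, 177631108 to 177632616), was 1509 bp wide and ranked 301st of 26431. Its left control peak ranked 153rd of 11653 and its right one 9705th, with 554 bp between them. The second, on chromosome 11 (58672701 to 58673739), ranked 326th and held the control peak of rank 37, the strongest in any spanning peak, 193 bp from one of rank 6661. The third, on chromosome 12 (49524034 to 49525529), ranked 335th and joined control ranks 86 and 6943.

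Similar control ranks were seen further down this list. On chromosome 5 (37370914 to 37371669, rank 345) the control ranks were 198 and 6360, and the right control peak ran 50 bp past the shRB edge. On chromosome 3 (185655025 to 185656174, rank 420) they were 6169 and 259. The next sites had less unequal neighbours, and the first of them had no control peak in the upper 10%. On chromosome 1 (229477864 to 229479024, rank 557) the control ranks were 1955 and 3709, and on chromosome 10 (105127571 to 105128639, rank 571) they were 3777 and 413. The last of these was 1 of the 10 sites where no control peak lay wholly inside. Those on chromosome 2 (17934521 to 17935719, rank 593), chromosome 3 (136470431 to 136471872, rank 619) and chromosome 1 (153606285 to 153607093, rank 636) again held 1 control peak of the upper 10% each. Over the 10 sites, the weaker control peak lay in the lower 50% of its list in 8. This was usual: over all 395 spanning peaks, the best 2 control peaks were both in the upper 50% in only 52 (13.2%).

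In the 10 spanning peaks that overlapped 3 control peaks, 23 of 30 control peaks, or 76.7% (59.1 to 88.2), were in the lower 50% of the shCON list. Among the 800 control peaks in all spanning peaks, which include these 30, the share was 63.0% (59.6 to 66.3). That lies inside the wide interval of the 30. The 30 had a median percentile of 28.4 (16.4 to 38.4), where 0 is the lowest and 100 the highest score. In 5 of the 10, at least 1 control peak was in the upper 50%. The shRB peaks themselves had a median percentile of 72.0 in their own list, and 3 of 10 lay in its upper 25%. The strongest lay on chromosome 7 (21466561 to 21468128), ranked 1201st and was 1568 bp wide. From left to right its control peaks ranked 8950th, 1787th and 9743rd, separated by 103 and 350 bp.

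The next triplets by shRB score differed in the ranks and spacing of their control peaks. On chromosome 17 (2295900 to 2297350, rank 6147) the control ranks were 4869, 10343 and 9328. On chromosome 5 (96270343 to 96271935, rank 6409) they were 4727, 7815 and 3460, so that the middle peak was the weakest. A second site on chromosome 7 (44121726 to 44122766, rank 6951) held a closely packed triplet, with gaps of 78 and 84 bp and the outer control peaks running 2 and 9 bp past the shRB edges. The fifth, on chromosome 18 (rank 7295), was open, with gaps of 406 and 453 bp and 45.8% of its width covered by control peaks. The lowest-ranking of the 10 triplets lay on chromosome 22 (50780744 to 50781948, rank 12858), and its control peaks ranked 9328th, 10068th and 10068th.

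Control peaks within a spanning peak lay close together. Over the 405 pairs of neighbouring control peaks inside them, the median gap from the end of 1 peak to the start of the next was 193 bp (182 to 216), and the 25th and 75th percentiles were 124 and 325 bp. The gap was under 200 bp in 208 pairs, or 51.4% (46.5 to 56.2), and 500 bp or more in 33. The median distance between the centres of neighbouring control peaks was 534 bp (514 to 562). No gap was shorter than 77 bp, and 77 bp was also the shortest distance between any neighbouring peaks in either whole list.

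**Figure D2:**
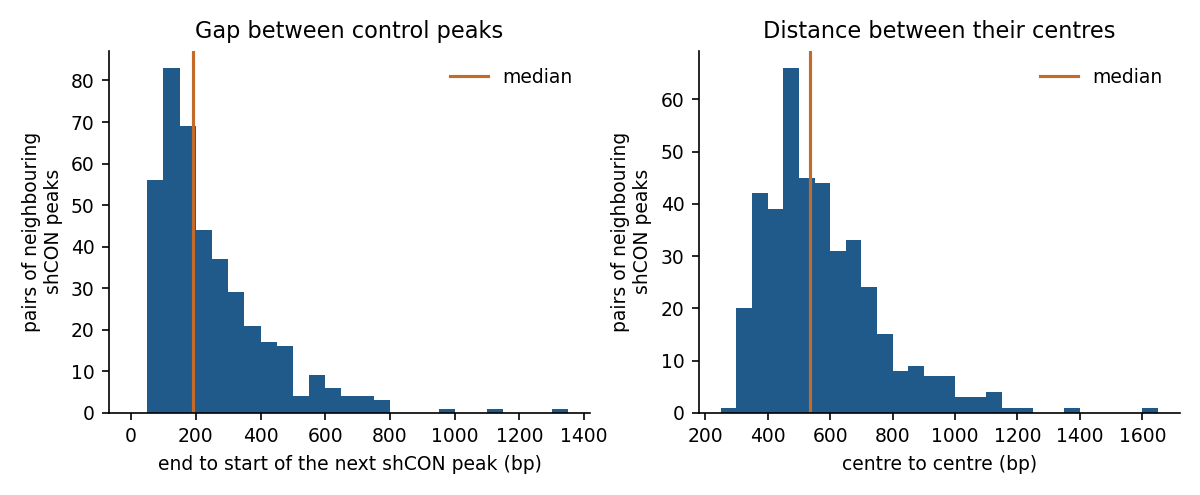
Spacing of the 405 pairs of neighbouring shCON peaks that fell in the same shRB peak, as numbers of pairs in bins of 50 bp; the left panel plots the gap in bp, the right panel the distance between centres in bp, and the line marks the median. Gaps pile up between 77 and 200 bp with a tail to 1312 bp, and centre distances lie around the median of 534 bp.

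The shortest gaps were spread over 5 chromosomes. A gap of 77 bp was found on chromosome 12 (92539277 to 92540316), chromosome 19 (39832397 to 39833244), chromosome 3 (119813064 to 119814714), chromosome 6 (150184348 to 150185754) and chromosome 7 (100895289 to 100896067). The chromosome 12 site lay within 1 Mb of a stretch of at least 2 Mb without peaks. The chromosome 3 site extended 669 bp to the left of its control peaks and 30 bp to the right. The widest gap, 1312 bp, lay on chromosome 17 (44269843 to 44271664), where a shRB peak of 1822 bp ranked 1822nd overlapped control peaks ranked 6268th and 2096th. The left control peak ran 89 bp past the edge of the shRB peak. There 27.2% of the shRB peak was covered by control peaks, so most of the shRB peak lay where the control list had no call.

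The other wide gaps were under shRB peaks of lower rank. They lay on chromosome 12 (125050823 to 125052639, gap 1105 bp, rank 11173), chromosome 13 (42614141 to 42615636, gap 959 bp, rank 11866), chromosome 1 (151430753 to 151432163, gap 791 bp, rank 9976) and chromosome 17 (27052657 to 27054239, gap 780 bp, rank 7470). Across the 395 peaks the widest gap was related to width (Spearman rho 0.46) and hardly to score (rho -0.08). A spanning peak has to be wider than the gap it covers, so the relation with width follows in part from how the peaks were chosen. Both values are descriptions across peaks that come from the same 2 libraries.

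The middle of a spanning peak was often outside the control peaks. In 213 of 395, or 53.9% (49.0 to 58.8), the centre of the shRB peak fell in no control peak, and in 116 it fell in the higher-scoring control peak. The 213 include centres between control peaks and centres beyond the outermost one, which were not counted apart. Among single-partner peaks the centre missed the control peak in 16.7% (16.0 to 17.4). With control peaks placed on both sides, a centre between them is partly given by how the peaks were chosen. The higher-scoring control peak was the left one in 202 of 395, or 51.1% (46.2 to 56.0), close to an even split. It was nearer to the shRB centre in 58.2% (53.3 to 63.0), at a median of 262 bp (252 to 276) against 298 bp (277 to 322) for the next.

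Most, but not all, close pairs of control peaks were joined in the RB-depleted line. The control list held 488 pairs of neighbouring peaks at most 500 bp apart. Both members of a pair fell in 1 shRB peak in 372, or 76.2% (72.3 to 79.8), in separate shRB peaks in 83 (17.0%), 1 of them had no shRB peak in 27 (5.53%) and neither had one in 6 (1.23%). The joined share fell with the gap: it was 93.3% (84.1 to 97.4) of 60 pairs under 100 bp apart and 90.5% (85.1 to 94.1) of 168 pairs from 100 to under 200 bp. From 200 to under 300 bp it was 70.4% (61.5 to 78.0), from 400 to under 500 bp 33 of 66 pairs, and from 750 to under 1000 bp 6.78% (2.67 to 16.2). As gaps grew, separate shRB peaks took the place of joined ones, reaching 86.5% of 96 pairs from 1000 to under 1500 bp. The longest shRB peak was 2162 bp, which limits the gap that can be joined.

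**Figure D3:**
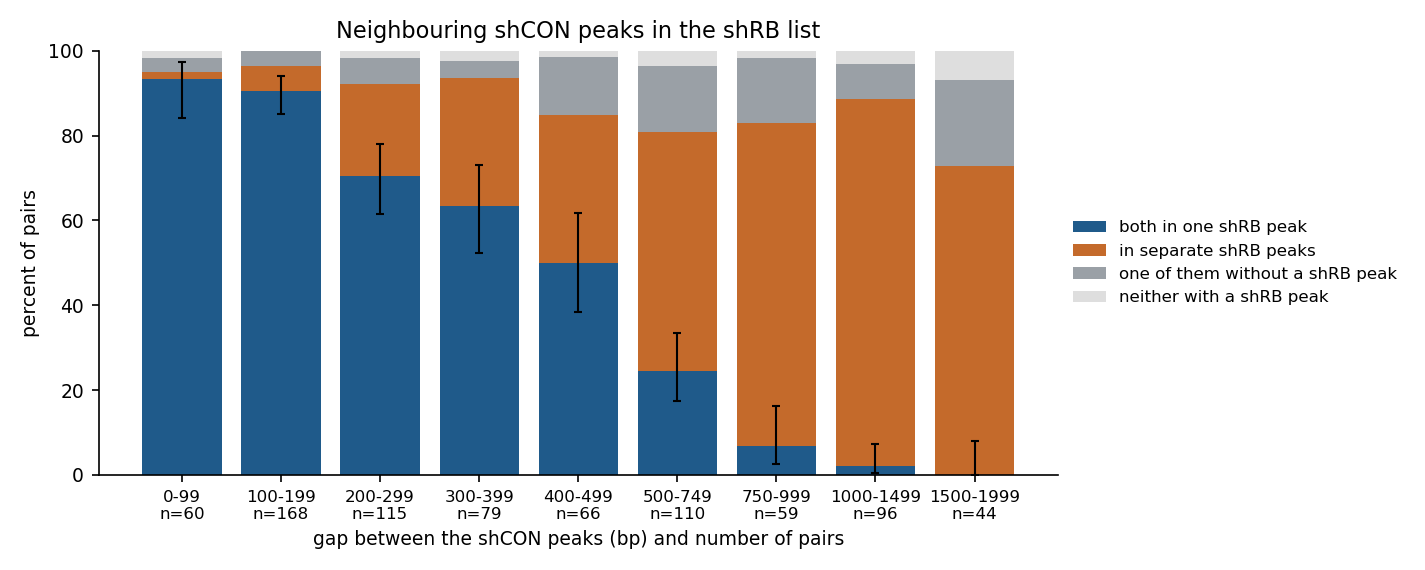
Neighbouring shCON peaks up to 2 kb apart, grouped by the gap between them in bp with the number of pairs under each bar; the vertical axis is the percent of pairs by what the shRB list held there, and error bars are Wilson intervals of the joined share. The joined share falls from 93.3% under 100 bp to 0 of 44 pairs from 1500 to under 2000 bp.

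Close pairs held in separate shRB peaks had higher-scoring control peaks than joined pairs. The higher control percentile of a pair had a median of 56.1 (52.8 to 61.4) in the 372 joined pairs and 69.0 (63.3 to 74.1) in the 83 pairs with separate shRB peaks. The lower one had medians of 23.2 (20.9 to 25.5) and 37.5 (28.0 to 44.9). The separate pairs were also wider apart, with a median control gap of 342 bp, against 193 bp over all 405 pairs inside spanning peaks. Scores were not compared at equal gaps, so the part of spacing in the score difference was not tested. The gap between the 2 shRB peaks of separate pairs was smaller than their control gap, at 165 bp (140 to 194). In the 27 pairs with only 1 partner, the control peak without a shRB call lay a median of 236 bp (131 to 297) from the shRB peak of its neighbour, and 6 lay within 100 bp. Regions beside long stretches without peaks, or on chromosomes M and Y, held 12 of the 372 joined pairs (3.23%, 1.85 to 5.55), 5 of the 83 pairs in separate shRB peaks (6.02%, 2.60 to 13.3), 7 of the 27 pairs with 1 partner and 5 of the 6 with none. The part of these regions in the pairs that lacked a shRB peak was not tested.

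The opposite arrangement was rare. Among 1654 neighbouring shRB pairs at most 500 bp apart, 17 (1.03%, 0.643 to 1.64) fell in a single control peak. Many of these shRB pairs had a peak with no control partner at all, which the count includes. When both peaks of a pair had a partner, 17 of 168 shRB pairs (10.1%, 6.41 to 15.6) fell in 1 control peak, against 372 of 455 control pairs (81.8%, 77.9 to 85.0) in 1 shRB peak. The 372 pairs lay in spanning peaks by definition. Control peaks were also narrower, with a median width of 344 bp against 438 bp for all shRB peaks, and a narrower peak can join fewer neighbours. The part of width in the difference between 10.1% and 81.8% was not tested. Read depth is unknown for both lists, and with 1 library per line this difference has no replicate check.

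Spanning peaks ranked like single-partner shRB peaks at the median, with smaller shares of them at both ends of the list. Their median score percentile was 79.4 (77.5 to 81.0), a rank of 5444, and that of single-partner peaks was 80.2 (79.8 to 80.6). In the upper 25% of the shRB list lay 62.0% (57.1 to 66.7) of spanning and 61.0% (60.0 to 62.0) of single-partner peaks. None of the 300 highest-scoring shRB peaks was a spanning peak (Wilson interval 0 to 1.26%). Of the top 1000, 23 were spanning peaks (2.30%, 1.54 to 3.43). This share was above the 1.49% of all shRB peaks, but these include peaks without a control partner, which cannot be spanning peaks. It was below the 3.90% (3.54 to 4.29) of shared shRB peaks. In the top 10% of the list lay 80 of the spanning peaks (20.3%, 16.6 to 24.5) and 26.2% (25.3 to 27.1) of single-partner peaks. In the lower 50% of the list lay 6 spanning peaks (1.52%, 0.698 to 3.27) and 8.59% (8.05 to 9.16) of single-partner peaks. Their scores were thus concentrated in the middle to upper part of the list.

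The share of shared shRB peaks that spanned several control peaks was highest below the top scores. It was 2.99% (1.98 to 4.48) in the sixth score decile, 5.58% (4.66 to 6.67) in the eighth and 3.04% (2.45 to 3.76) in the highest. By width it rose without a turn over the upper deciles, from 0.939% (0.595 to 1.48) in the eighth to 3.83% (3.07 to 4.75) in the ninth and 14.3% (12.8 to 15.9) in the widest. Even among shared shRB peaks of 1600 bp or more, 24 were spanning and 35 had a single partner. Wide shRB peaks were therefore not always made of several control peaks.

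**Figure D4:**
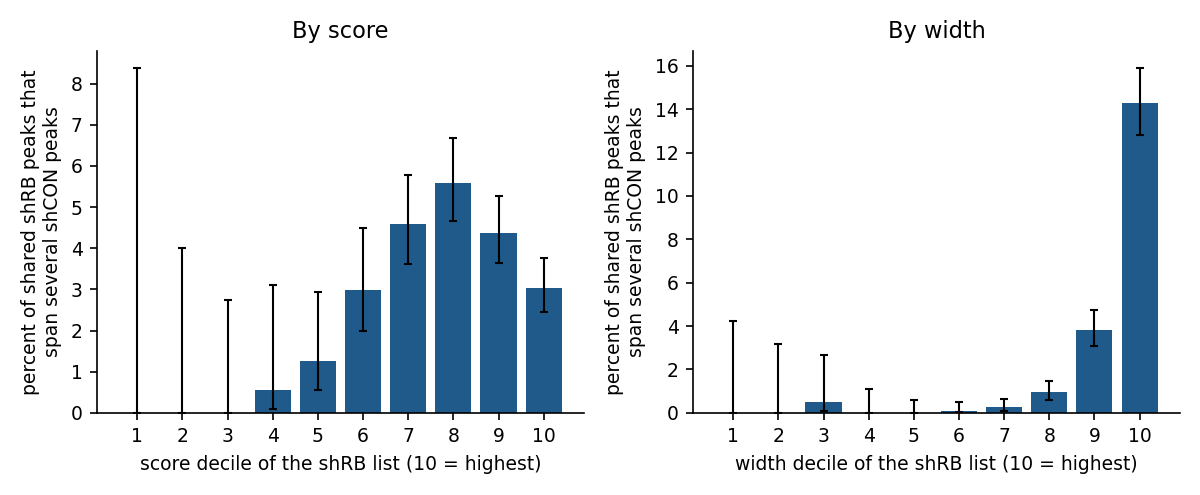
Percent of shared shRB peaks that overlapped 2 or more shCON peaks, by score decile (left) and width decile (right) of the whole shRB list, with Wilson intervals; decile 10 is the highest. The share peaks at 5.58% in the eighth score decile and reaches 14.3% in the widest decile.

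At the same width, spanning and single-partner peaks had similar scores, apart from a lower median in the narrow range. From 600 to under 800 bp the median score percentile was 71.4 (65.4 to 84.3) for 29 spanning and 84.5 (84.0 to 85.1) for 3137 single-partner peaks. From 1000 to under 1200 bp it was 77.5 (75.3 to 80.2) for 135 and 80.5 (79.4 to 81.8) for 913, and from 1200 to under 1400 bp 81.0 (78.7 to 82.8) for 71 and 79.4 (77.0 to 81.6) for 295. The intervals overlapped in each of these 3 ranges. Over spanning peaks score and width were nearly unrelated (Spearman rho 0.07), against 0.27 over single-partner peaks. The sets differed in width, with medians of 1111 and 700 bp. The median score percentile of single-partner peaks was 15.7 in width decile 1, the narrowest, which held no spanning peak. It was 84.5 in width decile 8 and 72.8 from 1600 to under 2200 bp. The part of the width range in the difference between the rho values was not tested.

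The lowest-scoring spanning peaks were of mixed shape. The lowest lay on chromosome 11 (108464430 to 108464705, rank 18309) and was also the narrowest, at 276 bp. It touched control peaks ranked 5973rd and 3032nd that ran 198 and 151 bp past its edges, so here the control line had the wider region. The next, on chromosome X (39872682 to 39874395, rank 13902), was 1714 bp wide and ran 947 bp past its control peaks on the right, with 24.6% of its width covered by them. Those on chromosome 12 (124844102 to 124845140), chromosome 20 (18037454 to 18038614) and chromosome 1 (205313209 to 205313747) ranked 13802nd, 13622nd and 13604th.

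Control peaks inside spanning peaks were as a group lower in score than other shared control peaks. The 800 had a median percentile of 38.5 (36.2 to 40.7) and a median width of 296 bp (285 to 307). The 9727 shared control peaks outside spanning peaks had medians of 54.1 (53.2 to 55.1) and 364 bp (361 to 368). The highest-scoring control peak of a spanning peak had a median percentile of 57.3 (54.2 to 62.2), and the next had 23.5 (21.6 to 26.7). As the pair is ordered by score, the first must exceed the second, and neither is comparable with the median over single control peaks. The median difference between them was 25.9 percentile points (23.0 to 29.6). Sorting alone gives a difference, and its size was not set against that of other pairs of control peaks.

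Only a few sites held control peaks that were both strong. In 12 of 395 (3.04%, 1.75 to 5.23) the best 2 control peaks were both in the upper 25% of the shCON list, and in 52 (13.2%) both were in the upper 50%. In 192 (48.6%) 1 was in the upper and 1 in the lower 50%, and in 151 (38.2%) both were in the lower 50%. In 100 sites (25.3%, 21.3 to 29.8) the second control peak was among the lowest 10% of its list, near the end of what was called at all. The second peak is the lower of a sorted pair, so these shares follow in part from the sorting. They were not set against other pairs of control peaks. The higher-scoring control peak was also the wider one in 308 sites, or 78.0%.

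**Figure D5:**
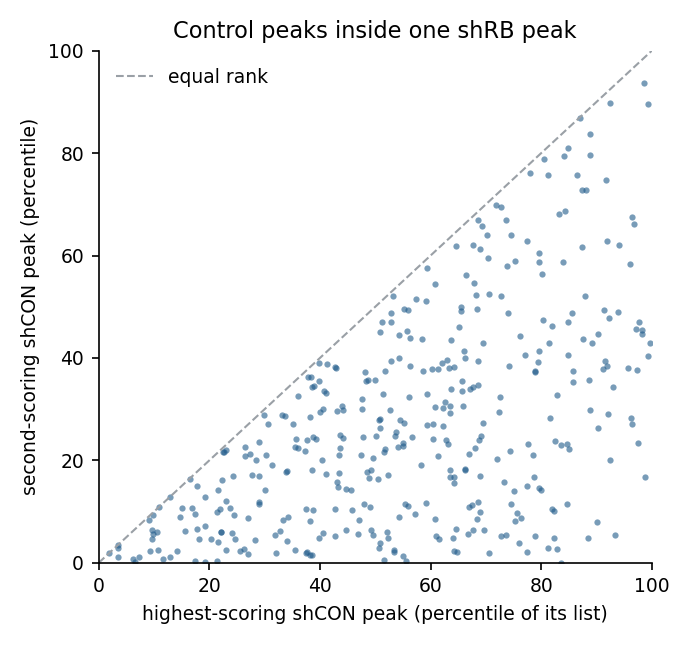
Score percentiles in the shCON list of the 2 highest-scoring control peaks in each of the 395 spanning peaks, with the highest on the horizontal and the second on the vertical axis; points cannot lie above the dashed line of equal rank. Most points lie well below the line and few reach the upper right corner, where 12 sites have both above the 75th percentile.

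The score of a spanning peak went with that of its strongest control peak more than with that of the second. Across the 395 peaks the Spearman rho with shRB score was 0.71 for the strongest and 0.38 for the second control peak, and over single-partner peaks it was 0.70. In the top 10% of the shRB list, the strongest control peak of 80 spanning peaks had a median percentile of 85.8 (83.6 to 88.8), and the control peak of 2553 single-partner peaks had 87.1 (86.4 to 87.6). Between the 75th and 90th percentile of the shRB list the values were 60.2 (55.3 to 65.2) for 165 spanning and 54.3 (53.2 to 55.2) for 3390 single-partner peaks. Between the 50th and 75th they were 39.3 (35.5 to 43.7) for 144 spanning and 31.4 (30.2 to 32.3) for 2964 single-partner peaks. The maximum over several control peaks tends to be higher than a single one, so none of these 3 comparisons is like for like.

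Spanning peaks were found on every chromosome except M and Y, roughly in step with shared peaks. The share of shared shRB peaks was between 2.86% on chromosome 6 and 5.48% on chromosome 5 for all of chromosomes 1 to 22 and X but 1. On chromosome 18 it was 7.69% (4.45 to 13.0), 12 of 156 shared peaks, and this was the only chromosome whose interval did not hold the 3.90% of the whole list. It was picked after all 25 values were seen. Chromosome 18 had more close control pairs, 16 for 198 control peaks (8.08%, 5.04 to 12.7) against 4.19% (3.84 to 4.57) in the whole list, and 13 of the 16 were joined. On chromosome 19, where 6.33% of spanning and 6.43% of all shRB peaks lay, 24 of 41 close control pairs were joined (58.5%, 43.4 to 72.2). The joined shares on chromosomes 6, 10 and 16 were similar, at 61.9% of 21, 60.0% of 25 and 65.2% of 23 pairs.

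Like single-partner peaks, most spanning peaks had no close neighbour. Their nearest shRB neighbour was a median of 21.8 kb (17.4 to 26.4) away, against 17.6 kb (16.9 to 18.3) for single-partner peaks, and 22 of 395 (5.57%, 3.71 to 8.29) had another shRB peak within 500 bp, against 10.6% (10.0 to 11.2) of single-partner peaks. Spanning peaks were also the wider set, and the part of width in this difference was not tested. Beside long stretches without peaks, or on chromosomes M and Y, lay 14 spanning peaks (3.54%, 2.12 to 5.86), against 3.83% (3.46 to 4.23) of single-partner and 4.06% of all shRB peaks.

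Near the limit of the rule the overlaps were small but few. The smallest overlap of a spanning peak with any of its control peaks was 17 bp, on chromosome 5 (134240231 to 134241366). It was followed by 27 bp on chromosome 17 (74667545 to 74668160) and 33 bp on chromosome 2 (183988940 to 183989694). Just outside, a shRB peak on chromosome Y (28817100 to 28817419) missed a further control peak by 13 bp and 1 on chromosome 12 (122984754 to 122985862) by 29 bp. Of the 9744 single-partner peaks, 13 had another control peak within 100 bp of their edge and 63 within 200 bp.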

How the data were processed

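E2F1 ChIP-seq peak lists of 2 LNCaP lines, shRB and shCON, with 1 library each, were used. Per the submitters' processing notes, Bowtie and MACS2 were used on hg19; for versions, settings, thresholds and control libraries, nothing is stated there. The deposited lists give position and a peak score whose scale the authors do not state. Scores were used only as ranks and percentiles within a list. Depth is unknown. The grouping came from the knockdown label.

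Overlaps were computed with numpy 2.4.6 and checked against bedtools 2.31.1. The functions for overlaps, neighbours and median intervals were tested on simulated data. Python 3.11.15, pandas 2.3.3, scipy 1.17.1 and matplotlib 3.10.9 were used. Starts are printed 1-based. Percentages carry 95% Wilson intervals and medians 95% order-statistic intervals; both treat peaks as independent, which neighbours are not, and cover counting error alone. No tests were made between the lines.

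The peaks and comparisons were chosen with earlier results of these data known. Named peaks were the 10 with the highest score, the 5 with most control peaks, and the 5 at each end of gap and at the lowest score; the lowest-ranking triplet and the peaks nearest the limit were added after their values were seen. Genes, transcription start sites, divergent promoters, motifs and gene lists were planned and not analysed here, since the annotation at hand is of GRCh38 and no hg19 sequence was used.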

Additional observations from a re-analysis of the deposited data

How the results depend on the processing

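Requiring each control peak to be overlapped over at least 50% of its length gave 385 spanning peaks in place of 395, restricting to chromosomes 1 to 22 and X gave 395, and leaving out peaks beside long peak-free stretches and on chromosomes M and Y, an alternative chosen after seeing the data, gave 381. Under these 3 the shares, the median score percentile and the median gap stayed within their intervals. When both lists were reduced to their upper 50% by score, 52 spanning peaks were left, 0.980% of shared shRB peaks, with a median score percentile of 89.5, and 59.0% of 78 close control pairs were joined; this alternative removes low-scoring control peaks, and the median gap was 190 bp. Requiring a gap of at least 200 bp left 196 spanning peaks, or 1.93% of shared ones, since about as many gaps lie below that value as above it. Measured between centres, the median spacing was 534 bp in place of 193 bp. No paired analysis was possible because each line had 1 library. The alternatives for promoters, divergent promoters, start sites, motifs and gene lists were not run. A missing call in either list is not absence of binding, as depth is unknown.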

Other observations

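A few spanning peaks lay near each other. Of 372 neighbouring pairs of spanning peaks on the same chromosome, 11 (2.96%, 1.66 to 5.22) were within 100 kb, and the median distance was 3.45 Mb. The closest lay on chromosome 17 (34889994 to 34891614 and 34900426 to 34901663), 8.81 kb apart. The next pairs were on chromosome 12 (98897051 to 98898171 and 98908987 to 98910789, 10.8 kb) and chromosome 10 (43891573 to 43893049 and 43904133 to 43905061, 11.1 kb). Counted in windows of 1 Mb, 294 of 339 windows with a spanning peak held 1. The window with most, picked after its value was seen, was on chromosome 3 (49000001 to 50000000), with 5 of 22 shared shRB peaks, followed by chromosome 11 (67000001 to 68000000) with 4 of 20.

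The 17 control peaks that each overlapped 2 shRB peaks had a median width of 642 bp (520 to 799), and the gap between their shRB peaks had a median of 107 bp (96 to 165). The highest-ranking lay on chromosome 5 (137514358 to 137514977, rank 216 of the shCON list), where 1 shRB peak ranked 135th and the other 15407th. Of the 17, 3 lay beside long peak-free stretches or on chromosome M, among them the 2 widest, of 2741 bp on chromosome 6 (58776577 to 58779317) and 2683 bp on chromosome M (13839 to 16521). A pair of them, on chromosome 17 (4851981 to 4852562 and 4870366 to 4870876), each shared 1 of its shRB peaks with the spanning peaks. Those spanning peaks, 4852200 to 4853546 and 4870653 to 4871624, lay 17.1 kb apart.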
